A study of Mus musculus with 8 samples.

Results

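The 40 genes described here are G2/M and mitosis genes: cyclins, mitotic kinases, kinetochore and spindle proteins and the machinery of cytokinesis. The list was set by name, with earlier results of these data known. All 40 were found among the 20029 gene symbols of the deposited table, and all 40 passed the filter for testing. They were measured in tumour CD8+ T cells, from mice bearing MC38-OVA (colon carcinoma cells that make ovalbumin as a model antigen) under the skin of the right flank, in 4 libraries from Pglyrp1 knockout mice (KO 1 to KO 4) and 4 from wild-type mice (WT 6 to WT 9). The knockout strain is B6.129S4-Pglyrp1tm1.1Lky/J and the wild-type strain C57BL/6J, both from the same supplier, and both groups received the same dose of tumour cells. For each library 1000 cells were sorted by flow cytometry as living, CD45+, TCRβ+ and CD8+. The design text counts 4 mice per genotype. The sources used here do not give ages, the day of collection or whether groups were littermates, and name no cell type to which the deletion is restricted.

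As background, a cell that has copied its DNA passes through G2 and enters mitosis when cyclin B and its kinase, encoded by Cdk1, become active. Polo and Aurora kinases then build the spindle, kinetochores attach chromosomes to it, the spindle checkpoint holds the anaphase-promoting complex in check until attachment is complete, and the central spindle guides the final cut between the daughter cells. Most of these genes are transcribed late in the cell cycle and are little expressed in resting cells, so their transcripts are used as a measure of how many cells in a population are dividing. In tumours, CD8 T cells that meet their antigen can divide, while naive and resting memory cells seldom do. In bulk RNA, fewer dividing cells and less of each transcript per dividing cell cannot be told apart.

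The members share a promoter feature that their choice did not use. The cell cycle genes homology region, or CHR, is a short element bound by the DREAM and MuvB complexes, and CCAAT boxes are bound by NF-Y. Both were searched on both strands in RefSeq promoters (GRCm38.p6, 250 bases before to 50 after the start), the CHR as TTTGAA or TTCGAA and the box as CCAAT. Neither motif contains the other. Of the 40 members, 34 matched the promoter table. A CHR match stood in 28 of 34 members (82.4%), against 21.7% of all 27025 genes in the table, and in 26 of them the match nearest to the start lay within 50 bases of it. A CCAAT match also stood in 28 of 34 (82.4%, against 41.1% of all genes), and both stood together in 25 (73.5%, against 8.61%). Kinetochore, spindle and cohesin genes outside the members shared the feature: of 41 matched, 26 held a CHR match (63.4%), 26 a CCAAT match (63.4%) and 19 both (46.3%). Of 41 matched DNA replication and S phase genes, 8 held a CHR match (19.5%), 26 a CCAAT match (63.4%) and 7 both (17.1%). An E2F-like site (TTTCCCGC, TTTCGCGC, TTTGCCGC or TTTGGCGC) stood in 16 of the 41 S phase genes (39.0%), in 5 of the 41 kinetochore and spindle genes (12.2%) and in 1 of 34 members, Cdk1 (2.94%, against 2.61% of all genes). A match is a string of letters in the window, not a bound site.

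The 100 bases before the RefSeq start are shown for 5 members, because in each a CHR lies upstream of the start and the arrangement can be read directly. This is not the usual layout. In most members with a CHR match the nearest one lies after the start, as in Bub1 (at base 15), Cenpa (17), Plk1 (31) and Racgap1 (6). Capitals mark CHR and CCAAT matches on either strand (TTCAAA and ATTGG are the reverse complements of TTTGAA and CCAAT). They are GRCm38.p6 sequences from RefSeq, written 5′ to 3′ on the strand of the gene.
Cdk1 (chr10:69352913-69353012, minus strand): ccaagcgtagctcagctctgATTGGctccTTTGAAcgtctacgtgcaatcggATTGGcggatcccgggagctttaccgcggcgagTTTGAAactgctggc
Top2a (chr11:99024190-99024289, minus strand): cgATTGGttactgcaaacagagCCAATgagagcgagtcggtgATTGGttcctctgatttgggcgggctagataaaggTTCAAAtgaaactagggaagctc
Mki67 (chr7:135716380-135716479, minus strand): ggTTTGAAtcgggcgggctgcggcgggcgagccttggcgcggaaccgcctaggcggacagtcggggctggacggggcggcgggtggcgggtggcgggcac
Cdc20 (chr4:118437344-118437443, minus strand): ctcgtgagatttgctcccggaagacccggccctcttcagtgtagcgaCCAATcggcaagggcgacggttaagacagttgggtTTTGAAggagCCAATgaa
Kif11 (chr19:37376282-37376381, plus strand): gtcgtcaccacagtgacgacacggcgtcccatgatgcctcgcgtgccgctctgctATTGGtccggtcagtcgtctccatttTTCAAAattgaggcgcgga
In the printed bases of Cdk1, each of 2 CCAAT matches is followed by a CHR match. By the GENCODE gene annotation, 26 of these Cdk1 bases and 9 of those of Cdc20 lie in exons. The Cdk1 CHR match nearest the RefSeq start falls within its 26. In its printed bases Top2a has 3 CCAAT matches before 1 CHR match, with more of both motifs further upstream. Kif11 has 1 of each in the same order, whereas in Cdc20 a CCAAT match lies on each side of the CHR. Mki67 has a CHR but no CCAAT match in the printed bases, its CCAAT matches lying further upstream, at -188, -166 and -141. CHR matches were lacking in 6 members: Birc5, Ccnb1, Cenpe, Cks2, Nuf2 and Nusap1. Ccnb1, Cenpe and Cks2 still held a CCAAT match.

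**Figure D1:**
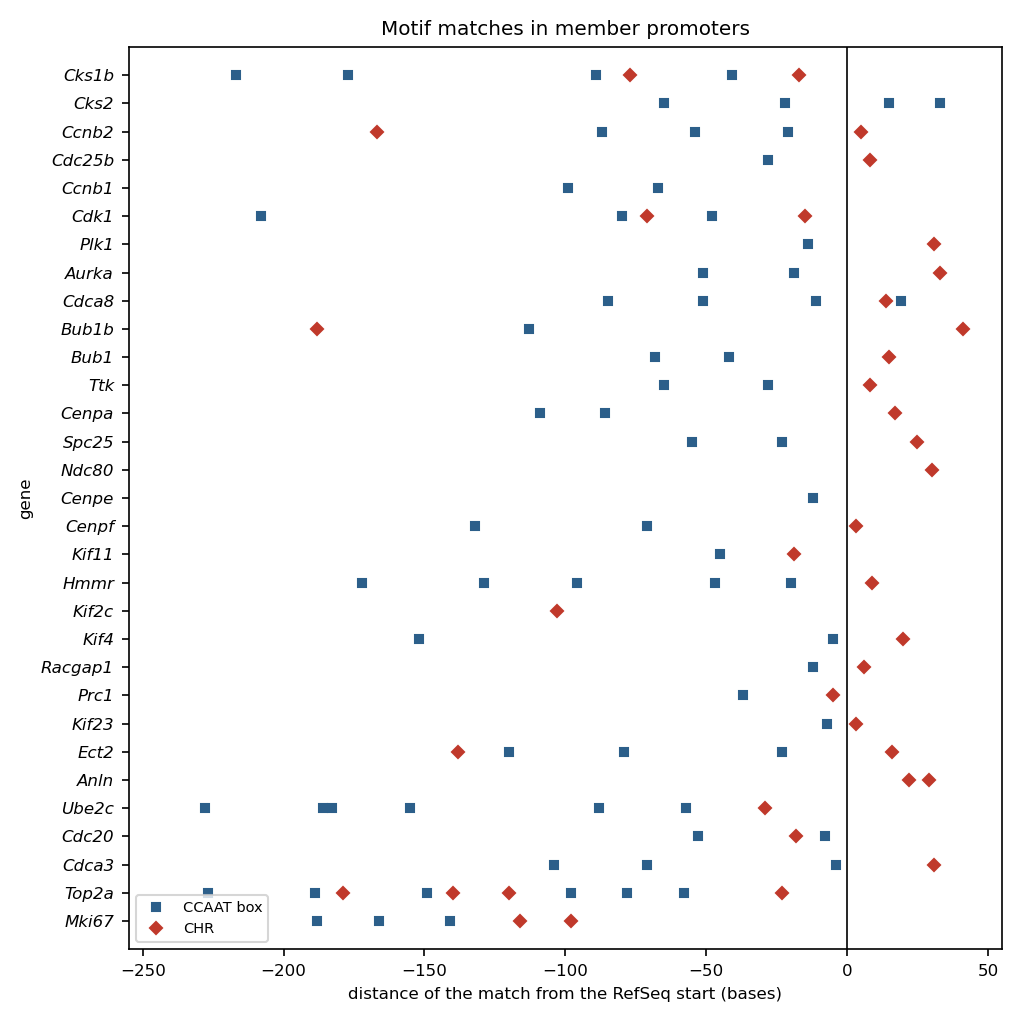
Position of each CHR (red diamond) and CCAAT (blue square) match relative to the RefSeq start, in bases, for the 31 members with a match; of 2 listed starts, the one with the lower coordinate is drawn. CCAAT matches lie mostly before the start, and 26 members have a CHR match within 50 bases of it, in most of these after the start.

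Deposited values summed to 2223162 to 3342847 per library, and 11935 to 13300 genes were above 0. Libraries were scaled to 1000000 in total, and the scaled values are called TPM here. TPM is by name a level per transcript length, but how the deposited values were scaled is not stated. The targeted gene, Pglyrp1, was at 123, 209.6, 208 and 153 TPM in WT 6 to WT 9 and listed at 0 in each KO library (limma adjusted p = 2.93e-07), which matches the labels. Cd8a ran from 376 to 506 TPM, Cd8b1 from 1039 to 1728 TPM and Cd3e from 675 to 1011 TPM over the 8 libraries, so the defining markers of the sorted cells were present throughout. Markers of other cells were unevenly spread: the summed level of 23 myeloid markers was 10336 and 13780 TPM in KO 3 and KO 4 and 421 to 1434.5 TPM elsewhere, with Lyz2, a defining macrophage gene, at 902 and 2952 TPM there and 0 to 47.2 TPM elsewhere. Naive and memory markers summed to 2815 and 2582 TPM in WT 6 and WT 9, and to 492 to 1637 TPM elsewhere. KO 3, KO 4, WT 6 and WT 9 therefore stand apart, and the main counts are given with and without them. KO 1, next highest in naive and memory markers at 1637 TPM, was not left out together with WT 6 and WT 9.

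Mitotic transcripts were present in every library. No member was listed at 0 anywhere, and mean levels over the 8 libraries ran from 3.26 TPM for Anln to 177 TPM for Stmn1, with a median of 22.6 TPM. Means of at least 100 TPM were found for 6 members: Stmn1, Ube2c, Cks1b, Cks2, Birc5 and Cenpa. Another 9 were under 10 TPM, among them the long transcripts of Cenpe, Cenpf and Anln.

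The members rose and fell together from library to library, and this pattern crossed the genotypes. Mean log2(TPM + 1) over the 40 members was 4.13, 5.09, 4.90 and 4.93 in KO 1 to KO 4 and 3.94, 5.49, 5.09 and 3.93 in WT 6 to WT 9. KO 1, WT 6 and WT 9 were thus low, WT 7 was high, and the other 4 libraries lay between. Together the 40 genes made up 0.114%, 0.209%, 0.189% and 0.204% of TPM in KO 1 to KO 4 and 0.0949%, 0.275%, 0.210% and 0.0973% in WT 6 to WT 9. KO 1, WT 6 and WT 9 were the 3 lowest libraries for 34 of 40 members (85.0%), as they were for 11.6% of the 10732 genes tested. WT 7 was the highest library for 31 members (77.5%, against 15.7% of tested genes). In all 40, both WT 7 and WT 8 exceeded both WT 6 and WT 9, as they did for 39.0% of tested genes. The highest library exceeded the lowest by 2.07-fold (Cks2) to 8.20-fold (Ect2), with a median of 4.16-fold. For the 9892 tested genes above 0 in every library the median was 2.24-fold.

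**Figure D2:**
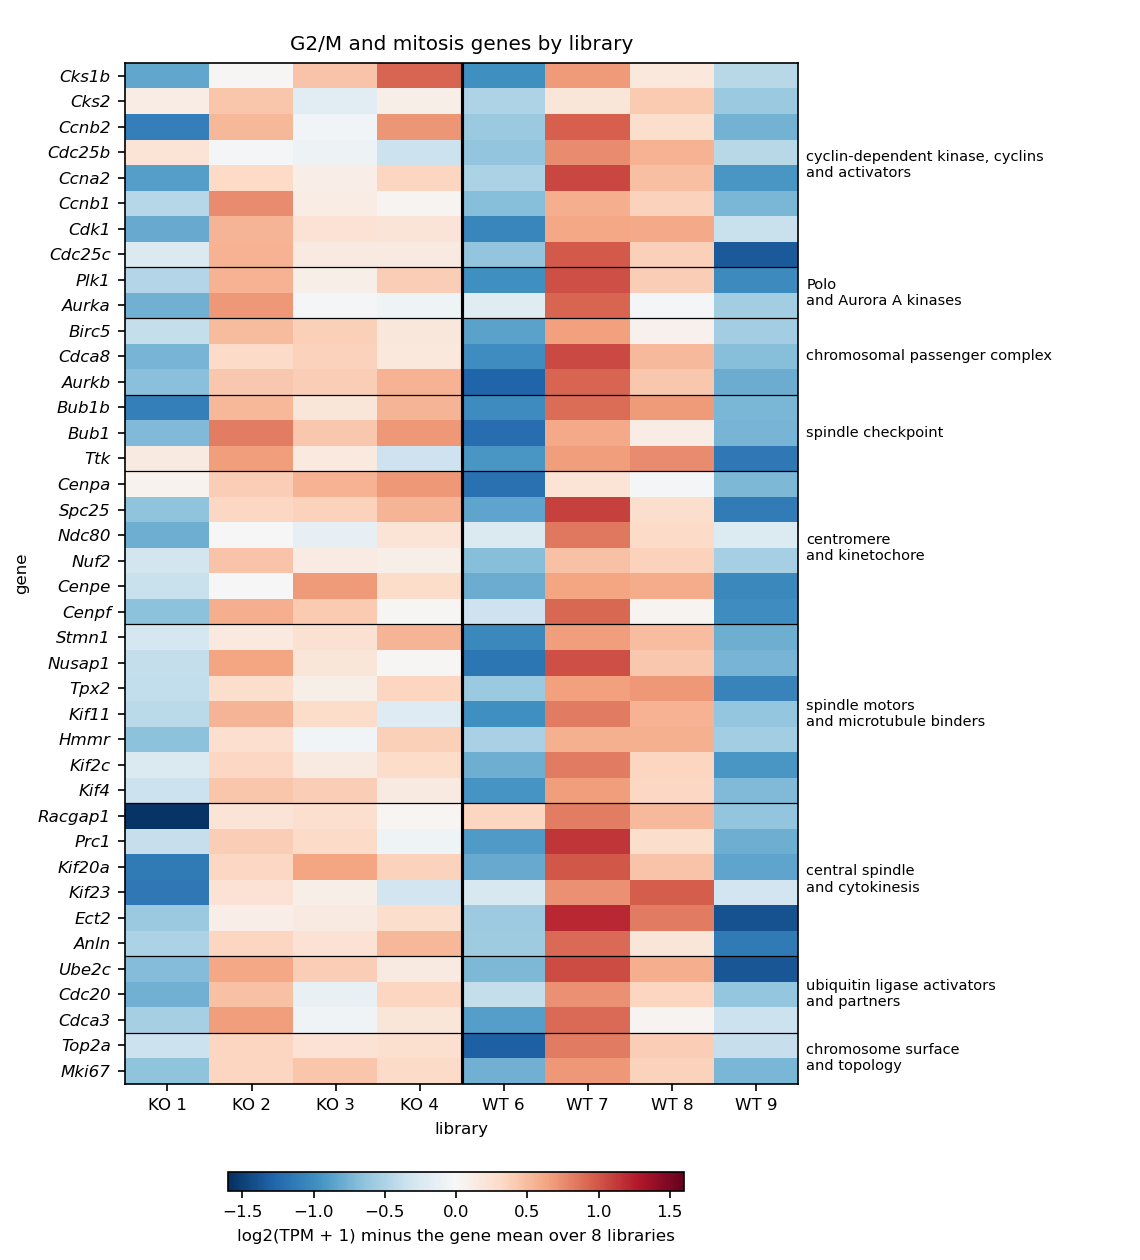
Log2(TPM + 1) of each of the 40 members (rows, grouped by role) in each library (columns), minus the gene's mean over the 8 libraries; red is above and blue below that mean. Columns KO 1, WT 6 and WT 9 are blue for nearly every gene and WT 7 is red, while the genotype line in the middle marks no shift shared by all genes.

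Mki67, which encodes the Ki-67 protein that coats mitotic chromosomes, followed this pattern most closely. It was at 7.62, 16.0, 17.4 and 15.6 TPM in KO 1 to KO 4 and at 6.91, 20.7, 16.3 and 7.08 TPM in WT 6 to WT 9. Relative to the mean of the members in the same library, its log2 level stayed within -1.05 and -0.71, the smallest spread of the 40 (SD 0.11 over 8 libraries, a description in which Mki67 is itself 1 of the genes averaged). Top2a encodes the topoisomerase that untangles sister chromatids, and was at 41.2, 67.1, 61.9 and 63.1 TPM in KO 1 to KO 4 and at 20.7, 94.5, 69.5 and 40.5 TPM in WT 6 to WT 9. Both genes were low in KO 1, WT 6 and WT 9, and in both the WT values spread more widely than the KO values and enclosed all of them.

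The kinase and cyclins that drive entry into mitosis showed the same order. Cdk1 was at 15.6, 41.4, 32.9 and 32.4 TPM in KO 1 to KO 4 and at 13.0, 43.6, 43.1 and 21.6 TPM in WT 6 to WT 9. Ccna2, the cyclin of S phase and G2, was at 31.5, 73.5, 63.1 and 74.9 TPM in KO 1 to KO 4 and at 41.0, 124, 82.3 and 30.3 TPM in WT 6 to WT 9. Among the B-type cyclins, which activate the kinase at the onset of mitosis, Ccnb1 was at 28.8, 67.7, 43.4 and 41.2 TPM in KO 1 to KO 4 and at 24.4, 60.3, 51.7 and 23.6 TPM in WT 6 to WT 9. In each of these genes the KO range fell within or across the WT range. Ccnb2, the other B-type cyclin, was at 32.2, 102, 68.2 and 115 TPM in KO 1 to KO 4 and at 46.3, 137, 85.8 and 41.3 TPM in WT 6 to WT 9. KO 1 was its lowest library and WT 7 its highest.

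Among the small kinase subunits and the activating phosphatases, Cks2 and Cdc25b departed from the common order of libraries, while Cks1b and Cdc25c kept its 3 low libraries. Cks1b encodes a CDK-binding subunit that also serves the ligase that removes the inhibitor p27, and was at 69.0, 126, 170.2 and 237 TPM in KO 1 to KO 4 and at 62.2, 200.2, 139.6 and 90.9 TPM in WT 6 to WT 9. Its highest library was KO 4 and its lowest WT 6. Cks2, its close relative, was at 115, 145, 93.9 and 113 TPM in KO 1 to KO 4 and at 74.8, 122, 142 and 70.02 TPM in WT 6 to WT 9, the narrowest range of any member. Cdc25b, a phosphatase that removes inhibitory phosphates from the kinase, was at 77.3, 65.3, 62.5 and 51.8 TPM in KO 1 to KO 4 and at 42.3, 112, 97.9 and 48.4 TPM in WT 6 to WT 9. KO 1, low for nearly all other members, had the highest Cdc25b level of the 4 KO libraries. Cdc25c, a phosphatase of the same family, ran from 2.36 TPM in WT 9 to 15.7 TPM in WT 7.

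Plk1, the Polo kinase that acts at centrosomes and kinetochores, was at 21.8, 45.3, 32.6 and 40.4 TPM in KO 1 to KO 4 and at 15.0, 63.4, 40.3 and 14.6 TPM in WT 6 to WT 9. Aurka, the Aurora kinase of spindle poles, was at 8.66, 25.7, 15.3 and 14.7 TPM in KO 1 to KO 4 and at 13.4, 30.6, 15.3 and 10.2 TPM in WT 6 to WT 9. Groups overlapped in both. In the chromosomal passenger complex, which corrects faulty attachments, the kinase Aurkb was at 24.3, 52.9, 51.8 and 57.7 TPM in KO 1 to KO 4 and at 15.4, 75.1, 52.8 and 22.03 TPM in WT 6 to WT 9. Birc5 (survivin), which brings that complex to centromeres, was at 78.0, 145, 133 and 116 TPM in KO 1 to KO 4 and at 56.1, 162, 107 and 68.8 TPM in WT 6 to WT 9. WT 6 was the lowest library for both, and WT 7 the highest. Cdca8 (borealin), which helps bring the complex to centromeres, ran from 25.6 TPM in WT 6 to 109 TPM in WT 7.

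Bub1, a kinase of the spindle checkpoint, was at 4.50, 14.8, 11.1 and 13.5 TPM in KO 1 to KO 4 and at 2.84, 12.6, 8.68 and 4.33 TPM in WT 6 to WT 9. KO 2, KO 4 and WT 7 were its 3 highest libraries. The other checkpoint genes ran from 8.32 to 36.0 TPM (Bub1b, whose product holds the anaphase-promoting complex inactive) and from 1.97 to 10.1 TPM (Ttk, the kinase that starts checkpoint signalling). Cdc20 activates the anaphase-promoting complex once the checkpoint is satisfied, and was at 27.4, 65.9, 43.4 and 60.2 TPM in KO 1 to KO 4 and at 36.2, 79.2, 60.1 and 30.3 TPM in WT 6 to WT 9. Ube2c, the ubiquitin-conjugating enzyme of the same complex, was at 75.9, 189, 162 and 136 TPM in KO 1 to KO 4 and at 74.4, 253, 184 and 46.8 TPM in WT 6 to WT 9. Again KO 1, WT 6 and WT 9 were the lowest libraries for both genes.

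Among spindle proteins, Kif11, the motor that pushes spindle poles apart, was at 11.8, 24.2, 20.0 and 13.9 TPM in KO 1 to KO 4 and at 7.72, 29.7, 24.3 and 10.2 TPM in WT 6 to WT 9. Hmmr, which binds spindle microtubules, was at 7.28, 14.8, 11.7 and 16.0 TPM in KO 1 to KO 4 and at 8.13, 18.4, 18.4 and 7.87 TPM in WT 6 to WT 9. Stmn1 (stathmin), which destabilises microtubules, had the highest mean level of the members and was at 135, 182, 194 and 238 TPM in KO 1 to KO 4 and at 79.2, 262, 229.9 and 94.4 TPM in WT 6 to WT 9. All 3 had their lowest values in KO 1, WT 6 and WT 9. Kif2c, Kif4, Tpx2 and Nusap1, a depolymerising motor, a chromosome-bound motor and a pair of spindle assembly factors, gave the same 3 lowest libraries and ran from 2.84 to 44.1 TPM.

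In Cenpa, Racgap1 and Kif23 the levels departed from the common order. Cenpa encodes the histone H3 variant that marks centromeres (chromosome 5, 30666777 to 30674830, plus strand). It was at 102, 129.7, 145 and 159.9 TPM in KO 1 to KO 4 and at 42.3, 115, 96.5 and 59.0 TPM in WT 6 to WT 9. In KO 2, KO 3 and KO 4 it exceeded its level in every WT library, and KO 1 lay below WT 7 only. Racgap1 (chromosome 15, 99620496 to 99651656, minus strand) and Kif23 (chromosome 9, 61915905 to 61946774, minus strand) encode the subunits of centralspindlin, the complex that bundles the central spindle and starts cytokinesis. Racgap1 was at 24.3, 86.5, 89.4 and 76.2 TPM in KO 1 to KO 4 and at 94.3, 132, 107 and 47.6 TPM in WT 6 to WT 9. WT 6, low for nearly every other member, was exceeded only by WT 7 and WT 8 here, and KO 1 was far below all other libraries. Kif23 was at 5.89, 16.9, 15.3 and 11.4 TPM in KO 1 to KO 4 and at 11.8, 24.3, 28.8 and 11.4 TPM in WT 6 to WT 9. WT 7 and WT 8 were above every KO library, and KO 1 was again lowest. The other cytokinesis genes did not share this: for Prc1, Kif20a, Ect2 and Anln the 3 lowest libraries were KO 1, WT 6 and WT 9.

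**Figure D3:**
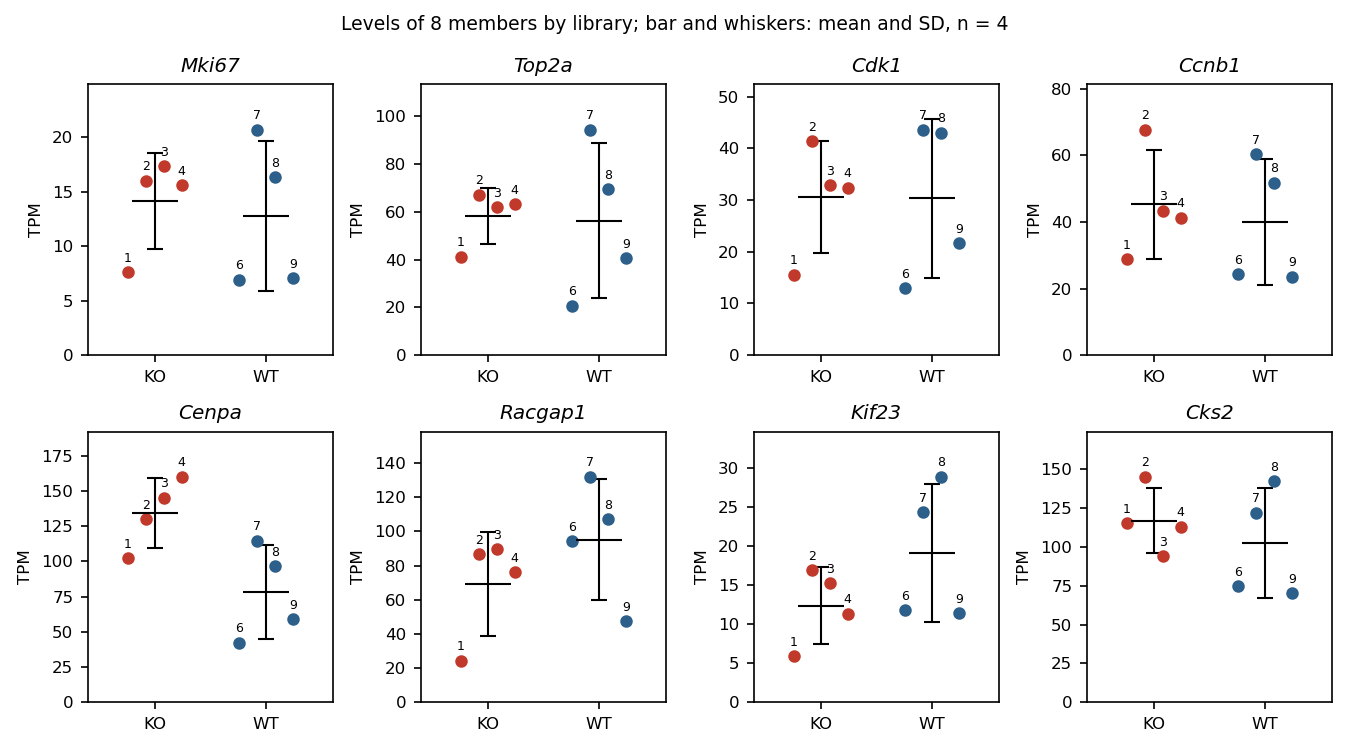
TPM of 8 members in each library, with its replicate number beside the point (red KO, blue WT); the black bar is the group mean and the whiskers its SD (n = 4). Mki67, Top2a, Cdk1 and Ccnb1 split within each genotype, Cenpa is highest in KO 2 to KO 4, and Racgap1 and Kif23 are lowest in KO 1.

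Setting each gene against the mean of the members in its own library removes most of the common pattern. On this relative log2 scale Kif23 was at -1.34, -0.93, -0.88 and -1.30 in KO 1 to KO 4 and at -0.26, -0.83, -0.19 and -0.30 in WT 6 to WT 9, lower in every KO than in every WT library. It was the single member whose groups did not overlap (0 higher and 1 lower in KO, 2.50%, where 0.969% of the tested genes were higher and 0.391% lower on the same scale). Those shares are not a like background. Subtracting the members' mean removes a common pattern from the members but adds it to genes that do not share it. Without that subtraction 2.62% of tested genes were entirely higher and 2.40% entirely lower in KO. Cenpa was at 2.56, 1.94, 2.29 and 2.40 in KO and at 1.497, 1.36, 1.52 and 1.98 in WT libraries, with KO 2 just below WT 9. Racgap1 was at 0.53, 1.36, 1.595 and 1.34 in KO and at 2.64, 1.56, 1.66 and 1.67 in WT libraries, with overlap between KO 3 and WT 7 only. Bub1 and Ndc80 also overlapped in 1 pair of libraries only. Bub1 was at -1.67, -1.11, -1.31 and -1.08 in KO and at -1.996, -1.73, -1.82 and -1.51 in WT libraries, KO 1 lying below WT 9. Ndc80 was at -0.53, -0.70, -0.66 and -0.34 in KO and at 0.20, -0.26, -0.41 and 0.23 in WT libraries, KO 4 lying above WT 8. These relative values are a description and were not tested.

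The comparison of genotypes asks whether loss of Pglyrp1, which encodes a peptidoglycan recognition protein, alters transcript levels in tumour CD8+ T cells. For mitotic genes no difference passed the threshold. With limma over 10732 genes (log2(TPM + 1), Benjamini-Hochberg adjusted p below 0.05), 0 of 40 members passed, where 3 of all tested genes did (0.0280%). At an unadjusted p below 0.05 there was 1 member higher in KO, Cenpa, and 0 lower, or 2.50% and 0%, where 6.01% of tested genes were higher and 3.07% lower. Groups did not overlap for 0 members in either direction, where 2.62% of tested genes were entirely higher and 2.40% entirely lower in KO. The mean of the members' log2 levels was 4.76 ± 0.43 in KO and 4.61 ± 0.80 in WT libraries (SD, n = 4 each), a difference of 0.15. Within the WT group, member levels ranged over more than the difference between the genotypes for 40 of 40 genes, and within the KO group for 39 of 40. A range of 4 values usually exceeds a difference between group means, and the share over all tested genes is not given. These counts therefore show nothing particular to the members.

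Fold changes were small relative to their error. The median log2 fold change, KO minus WT on log2(TPM + 1), was 0.21 over the members and 0.04 over all tested genes, and 31 of 40 members were positive (77.5%, against 55.2% of tested genes). Because the members move together, these signs are not separate observations. The balance depended on which libraries were kept, and to a lesser degree on scaling (given below). Of the 40, 18 were positive without WT 6 and 16 without WT 9, but 36 without KO 1, 37 without WT 7 and 36 without WT 8. Without KO 2, KO 3 or KO 4 singly, 25, 29 and 27 were positive. WT 6 and WT 9 were the 2 libraries lowest in the members, so omitting them raises the WT mean by construction. KO 1, next lowest in the members, was kept in the sets without WT 6 and WT 9, so the KO mean was not raised likewise. With both omitted, 1 member, Cenpa, was positive. Without both the median was -0.55, and 5 members had an unadjusted p below 0.05, with 0 past the adjusted threshold. Without KO 3 and KO 4, the libraries rich in myeloid transcripts, 23 of 40 were positive and the median was 0.05. Without all 4 of these libraries 1 was positive, the median was -0.67 and 10 had an unadjusted p below 0.05, again with 0 past the adjusted threshold. The share of all tested genes below that unadjusted cut is not given for these reduced sets. The counts of 5 and 10 therefore have no background beside them.

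Cenpa had the largest estimate, at 134 ± 24.6 TPM in KO and 78.1 ± 33.3 TPM in WT (SD, n = 4; log2 fold change 0.86, SE 0.30, 95% interval 0.18 to 1.53, limma adjusted p = 0.478; unadjusted p = 0.0179). It was 0.33 without WT 6 and WT 9 (unadjusted p = 0.144), 0.66 without KO 3 and KO 4 (0.130) and 0.13 without all 4 (0.525). Bub1 was next, at 11.0 ± 4.58 TPM in KO and 7.11 ± 4.42 TPM in WT (SD, n = 4; log2 fold change 0.62, SE 0.46, 95% interval -0.41 to 1.66, limma adjusted p = 0.69998). On the other side Kif23 was at 12.4 ± 4.90 TPM in KO and 19.1 ± 8.83 TPM in WT (SD, n = 4; log2 fold change -0.57, SE 0.39, 95% interval -1.44 to 0.31, limma adjusted p = 0.681), and Racgap1 at 69.1 ± 30.4 TPM in KO and 95.2 ± 35.3 TPM in WT (SD, n = 4; log2 fold change -0.53, SE 0.44, 95% interval -1.52 to 0.47, limma adjusted p = 0.745). Without KO 1 the Racgap1 estimate was -0.09 and the Kif23 estimate -0.28. Without WT 6 and WT 9 they were -0.93 and -1.13. Ndc80, a subunit of the outer kinetochore complex that grips microtubules, was at 11.1, 20.0, 17.9 and 23.1 TPM in KO 1 to KO 4 and at 16.7, 36.4, 24.7 and 16.9 TPM in WT 6 to WT 9 (log2 fold change -0.35, SE 0.30, 95% interval -1.02 to 0.33, limma adjusted p = 0.749). Its groups overlapped broadly.

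For the best-known proliferation markers the intervals show how much the design could have missed. Mki67 was at 14.1 ± 4.41 TPM in KO and 12.8 ± 6.88 TPM in WT (SD, n = 4; log2 fold change 0.22, SE 0.39, 95% interval -0.66 to 1.10, limma adjusted p = 0.890). Top2a was at 58.3 ± 11.6 TPM in KO and 56.3 ± 32.4 TPM in WT (SD, n = 4; log2 fold change 0.23, SE 0.41, 95% interval -0.69 to 1.15, limma adjusted p = 0.890). Cdk1 was at 30.6 ± 10.8 TPM in KO and 30.3 ± 15.4 TPM in WT (SD, n = 4; log2 fold change 0.09, SE 0.42, 95% interval -0.85 to 1.03, limma adjusted p = 0.967), and Ccnb1 at 45.3 ± 16.3 TPM in KO and 40.001 ± 18.8 TPM in WT (SD, n = 4; log2 fold change 0.23, SE 0.36, 95% interval -0.57 to 1.04, limma adjusted p = 0.872). Each interval includes 0 together with a 2-fold higher level in KO cells (a log2 fold change of 1). Over the 40 members the interval reached a median of 0.95 on either side of the estimate (0.56 for Cks2, 1.204 for Ect2). It lay wholly between -1 and 1, that is within a 2-fold change either way, for 7 members. A 2-fold difference was therefore not excluded for the other 33.

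**Figure D4:**
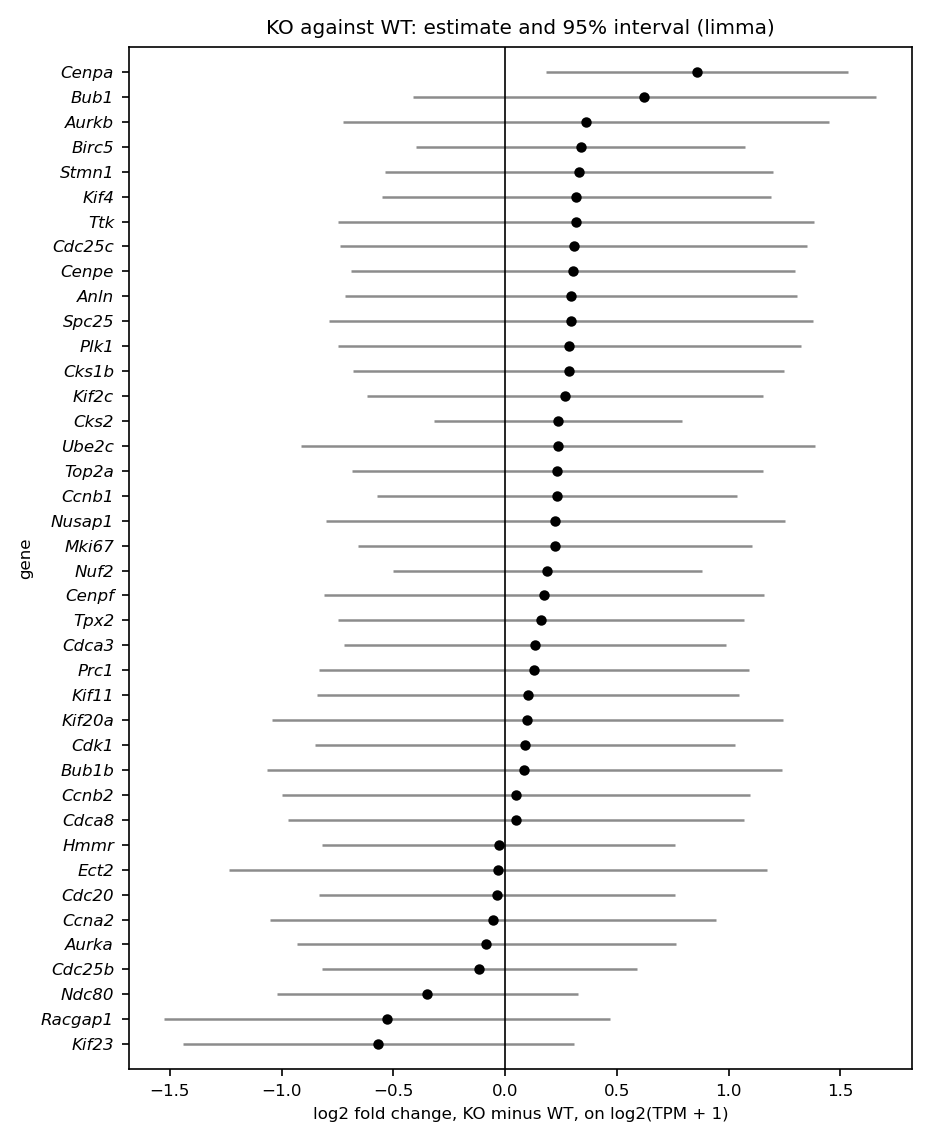
Log2 fold change, KO minus WT on log2(TPM + 1), for each of the 40 members (points) with its 95% interval from limma (lines), ordered by estimate. All intervals but that of Cenpa cross 0; Kif23 and Racgap1 have the lowest estimates.

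By role, the estimates divided as follows, with 0 past the threshold in every role. Of all tested genes 55.2% were positive. Members move together, so signs within a role are not separate observations, and differences between roles were not tested. All 3 passenger complex genes and all 3 checkpoint genes were positive, with medians of 0.34 and 0.32. Of the 6 centromere and kinetochore genes 5 were positive (median 0.24), Ndc80 being the exception. Of the 8 genes of the kinase, its cyclins and activators 6 were positive (median 0.16), and of the 7 spindle genes 6 (median 0.22). Cytokinesis genes divided evenly, 3 positive and 3 negative (median 0.03). Of the Polo and Aurora A kinases 1 was positive and 1 negative (median 0.10), of the 3 ubiquitin ligase activators and partners 2 were positive (median 0.14), and Mki67 and Top2a were both positive (median 0.23). Without WT 6 and WT 9, the 2 libraries lowest in the members, and with KO 1, next lowest, kept, only Cenpa of the 40 was positive.

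Among genes that work beside the members 0 passed the threshold either, but the balance of signs differed between lists. Of all tested genes 55.2% were positive, and of the members 77.5%. Of 51 tested kinetochore, spindle and cohesin genes outside the list 0 passed, 29 were positive (56.9%) and the median was 0.11. The smallest p belonged to Ska2, which links kinetochores to microtubules, at 22.5 ± 2.36 TPM in KO and 31.9 ± 7.03 TPM in WT (SD, n = 4) (limma adjusted p = 0.524), and Haus1, of the augmin complex, at 15.7 ± 2.49 TPM in KO and 22.1 ± 5.13 TPM in WT (SD, n = 4) (0.570). Of 8 condensin subunits 0 passed and 6 were positive, with Ncapg2 at 7.68 ± 2.57 TPM in KO and 4.82 ± 2.80 TPM in WT (SD, n = 4) (limma adjusted p = 0.632) and Ncapg at 22.6 ± 7.72 TPM in KO and 16.3 ± 8.15 TPM in WT (SD, n = 4) (0.712). Of 18 genes of the anaphase-promoting complex 0 passed and 8 were positive (44.4%, median -0.036). Cdc26, a subunit of that complex, was at 79.0, 77.1, 90.3 and 82.1 TPM in KO and at 67.9, 64.8, 52.8 and 57.8 TPM in WT libraries, with the groups apart (log2 fold change 0.43, limma adjusted p = 0.438). Ube2s, which extends ubiquitin chains, was at 15.6 ± 2.80 TPM in KO and 11.6 ± 6.06 TPM in WT (SD, n = 4) (0.660).

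Regulators upstream of mitosis did not pass either. Of 21 mitotic entry regulators and transcription factors 0 passed and 15 were positive (71.4%, against 55.2% of tested genes). Wee1, the kinase that keeps Cdk1 inactive, was at 2.08, 1.81, 4.49 and 2.10 TPM in KO and at 0.406, 0.900, 1.04 and 1.18 TPM in WT libraries, low throughout but apart (limma adjusted p = 0.474). Lin52, a subunit of the MuvB complex, was at 11.4 ± 1.32 TPM in KO and 16.0 ± 5.10 TPM in WT (SD, n = 4) (0.632). Of 18 tested G1 cyclins and kinases 0 passed and 11 were positive (61.1%). Ccnd2, the D-type cyclin most used by lymphocytes, was at 99.6 ± 18.3 TPM in KO and 132 ± 12.7 TPM in WT (SD, n = 4) (limma adjusted p = 0.501). Ccnd1, a D-type cyclin that T cells express little, was at 0, 1.51, 19.7 and 12.6 TPM in KO and at 0 to 1.22 TPM in WT libraries, high where myeloid transcripts were high (0.602). Of 20 tested CDK inhibitors and quiescence genes 0 passed, 9 were positive and 11 negative. Cdkn1a, the inhibitor p21, was at 35.3, 26.6, 97.2 and 107 TPM in KO and at 4.06, 41.4, 29.2 and 3.15 TPM in WT libraries (0.501). Like Ccnd1, it was highest in KO 3 and KO 4, where myeloid transcripts were high. Its log2 fold change was 2.16, and 1.44 with the mean of the myeloid markers added to the model. Tob1, an antiproliferative factor, was at 4.00 ± 1.02 TPM in KO and 9.55 ± 4.42 TPM in WT (SD, n = 4) with the groups apart (0.472).

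DNA replication and S phase genes, expressed just before the members in the cycle, kept the 3 low libraries but not the same top. Their mean log2 level was 4.69, 5.15, 5.20 and 5.49 in KO 1 to KO 4 and 4.42, 5.30, 5.03 and 4.62 in WT 6 to WT 9, highest in KO 4. Of 54 genes 0 passed the threshold, 3 had an unadjusted p below 0.05 and were higher in KO (5.56%, against 6.01% of all tested genes), and 48 were positive (88.9%, against 55.2%; median 0.25). Rpa2, of the single-strand binding complex, was at 109 ± 10.3 TPM in KO and 77.0 ± 18.8 TPM in WT (SD, n = 4) (limma adjusted p = 0.472), and Dscc1, of the cohesion clamp loader, at 7.63 ± 1.53 TPM in KO and 3.58 ± 1.98 TPM in WT (SD, n = 4) (0.476). The members' mean minus the S phase mean was -0.56, -0.06, -0.30 and -0.56 in KO 1 to KO 4 and -0.48, 0.19, 0.06 and -0.69 in WT 6 to WT 9, so mitotic genes were high relative to replication genes in WT 7 and WT 8 and low in KO 1, KO 4, WT 6 and WT 9.

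Other features of the libraries moved with the members. Naive and memory markers (14 genes) averaged 6.10, 5.68, 5.48 and 4.72 on the log2 scale in KO 1 to KO 4 and 6.78, 5.01, 5.26 and 6.71 in WT 6 to WT 9: the 3 libraries lowest in mitotic genes were the 3 highest in these markers. Ribosomal protein genes took 29.8%, 36.8% and 36.4% of TPM in KO 1, WT 6 and WT 9 and 20.4% to 28.1% elsewhere. Activated effector markers (14 genes) averaged 7.52 to 8.15 in KO and 5.18 to 7.18 in WT libraries, so KO 1 combined a high level of effector markers with a low level of mitotic genes. The part of these features in the mitotic pattern was not tested.

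**Figure D5:**
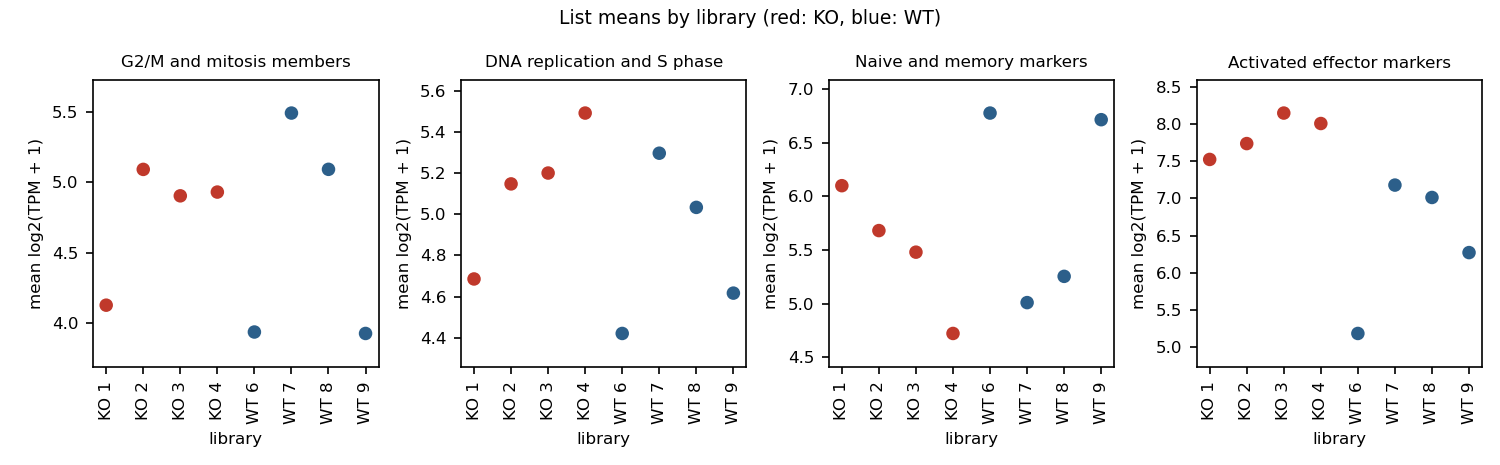
Mean log2(TPM + 1) of 4 gene lists in each library (red KO, blue WT); vertical axes differ and do not start at 0. KO 1, WT 6 and WT 9 are low for mitotic and replication genes and high for naive and memory markers, while effector markers are higher in every KO library than in any WT library.

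Cells other than T cells also divide, so their markers are given beside the members. KO 3 and KO 4, with the high myeloid sums above, were not the highest in mitotic genes: both exceeded the other 6 libraries for 1 member of 40 (2.50%), Cenpa, and for 14.2% of tested genes. The summed level of 11 epithelial and carcinoma markers was 14.2 to 47.9 TPM in 7 libraries and 90.9 TPM in KO 4, where Krt8 was at 45.4 TPM and Krt18 at 13.9 TPM. Epcam was at 2.43 to 4.21 TPM in KO and 0 to 1.63 TPM in WT libraries. Sums for 8 B and plasma cell markers were 52.4 and 50.3 TPM in WT 6 and WT 9 and 6.05 to 21.8 TPM elsewhere, with Cd79a listed at 0 in KO 2, KO 4, WT 7 and WT 8. Erythroid and platelet markers (10 genes) summed to 1372, 1061 and 487 TPM in KO 1, KO 4 and WT 9 and 4.06 to 45.8 TPM elsewhere. Ncr1, a natural killer cell receptor, ran from 0 to 7.996 TPM, and Foxp3, the regulatory T cell factor, from 2.03 to 7.56 TPM. The 12 natural killer markers, which include Tyrobp and Fcer1g of myeloid cells, summed to 234 to 2679 TPM in KO and 77.1 to 109 TPM in WT libraries. Their part in the mitotic values was not tested.

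The members lie on 16 chromosomes. Mki67, Plk1 and Prc1 share chromosome 7 with Pglyrp1, 117, 103 and 61.4 Mb from it. Kif4-ps, a pseudogene of Kif4, was above 0 in 1 library at 0.598 TPM. The sources used here do not say how the authors' counting divided reads between such copies.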

How the data were processed

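Gene expression was measured in 8 libraries (4 KO, 4 WT) by a modified SMART-Seq2 protocol with Nextera XT and paired reads of 38 bases, per the labels' protocols. The authors deposited 1 table, whose values are treated as a score: its name calls them TPM-normalized counts, but they are whole numbers whose sums differ between libraries. The submitters' processing notes name RSEM 1.3.3 and mm10. For the aligner, annotation and rounding step, nothing is given in the sources used here. The table holds no raw reads per gene, so depth is unknown and no counting interval is given. A score of 1 equals 0.299 to 0.450 TPM on the scale used here.

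Libraries were scaled to 1000000 in total and analysed as log2(TPM + 1), which understates fold changes of low genes. The test planned for TPM was applied to these scaled values. Filtering on 1 TPM or more in 4 or more libraries left 10732 genes for limma 3.58.1 (R 4.3.3), with genotype alone in the model, moderated variances that follow mean level, two-sided p-values and the Benjamini-Hochberg threshold of 0.05. The fit was checked on simulated data. An exact two-sided permutation test of Pglyrp1 over all 70 assignments gave p = 0.0286, the smallest it can give. If libraries of a group are not separate animals, p-values measure technical spread. Python 3.11.15, pandas 2.3.3, numpy 2.4.6 and matplotlib 3.10.9 were used for tables and figures. Gene coordinates are from GENCODE M21 (GRCm38, the mm10 assembly), 1-based, and promoters from RefSeq.

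The members and gene lists were chosen with earlier results of these data known, so no list received a test or an adjustment of its own. Levels in every library are given for 21 members set by name and for the 5 of smallest unadjusted p in each direction. From each other cell cycle list the 2 genes of smallest p are named, since 0 passed. Alternatives changed the pseudocount (0.5 or 5), filter, scaling or limma options, added a myeloid covariate, or omitted libraries. With libraries omitted, the filter asked for 1 TPM in as many libraries as the smaller group held.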

Additional observations from a re-analysis of the deposited data

Results flagged for a closer look

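In 5 of 100 groups of 4 libraries 1 library lay far from the other 3, where chance alone would mark about 1 in 20, or 5. None was a member of the mitotic list or the members' mean. Wee1 was at 4.49 TPM in KO 3, against 1.81 to 2.10 TPM in the other KO libraries. Rpa2 was at 105 TPM in WT 8, against 66.1 to 68.4 TPM in the other WT libraries. Cd3e was at 856 TPM in KO 4, against 772 to 784 TPM in the other KO libraries, and Krt8, a keratin of epithelial cells, was at 45.4 TPM in KO 4, against 0 to 4.79 TPM. Foxp3 was at 5.51 TPM in WT 9, against 2.03 to 2.43 TPM in the other WT libraries.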

How the results depend on the processing

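No paired analysis was possible because no replicate number occurs in both genotypes (KO has 1 to 4, WT 6 to 9). Across 21 alternatives 0 members passed the adjusted threshold in any. Pglyrp1 kept its direction and its call wherever it was tested (-7.56 to -7.31 with 1 library left out; it is not above 1 TPM in all 8 libraries). Over all genes, 3 passed the threshold as reported, 1 with 1 TPM required in all 8 libraries, 2 with a pseudocount of 5, 5 once KO 3 and 4 were dropped, 5 once WT 6 and 9 were, 10 once all 4 were, and 2 to 9 with a single library omitted (9 when it was KO replicate 2, 5 when it was KO replicate 1). Members with a positive fold change numbered 31, and still 31 with median-ratio scaling. They numbered 29 with quantile normalization, 27 with the myeloid covariate and 25 with ribosomal and the 20 most abundant genes removed. The count was 16 to 37 with 1 library left out, 1 without WT 6 and 9 and 1 without all 4. Dropping WT 6 and 9, the 2 libraries lowest in the members, raises the WT mean by construction. KO 1, next lowest, was kept in those sets, so the KO mean was not raised likewise. Members with an unadjusted p below 0.05 numbered 1, 0 with the myeloid covariate, 0 once KO 3 and 4 were dropped, 5 once WT 6 and 9 were and 10 once all 4 were. The share of all tested genes below that cut is not given for these alternatives, so the counts have no background. The median log2 fold change of the members was -0.029 to 0.48 with 1 library left out, 0.10 with ribosomal and the 20 most abundant genes removed, -0.55 without WT 6 and 9 and -0.67 without all 4. The median over all tested genes, 0.04 as reported, was -0.075 with those genes removed and -0.11 without all 4 libraries, so the member medians there stand against a shifted background.

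Of 23 named members, Cenpa, Kif23, Ndc80 and Racgap1 kept their direction in all 21 alternatives. Alternatives that change only the filter or the limma options leave a fold change as it was. In these same data Cenpa had the smallest unadjusted p of the members higher in KO, and Kif23, Racgap1 and Ndc80 the smallest of those lower. A kept direction is therefore no separate support. Directions that turned, as log2 fold changes, were these. With quantile normalization: Ccnb2 (-0.030). With ribosomal and abundant genes removed: Cdk1 (-0.037), Ccnb2 (-0.082), Kif11 (-0.016). With the myeloid covariate: Cdk1 (-0.069), Ccnb2 (-0.21), Aurka (0.026), Cks1b (-0.32), Cdc25b (0.14), Ccnd1 (-0.23). Without KO 3 and 4: Mki67 (-0.039), Cdk1 (-0.083), Ccnb2 (-0.26), Cks1b (-0.26), Cdc25b (0.043), Ccnd1 (-0.064). Without WT 6 and 9: Mki67 (-0.42), Top2a (-0.49), Cdk1 (-0.57), Ccnb1 (-0.36), Ccnb2 (-0.60), Plk1 (-0.57), Aurkb (-0.50), Bub1 (-0.047), Birc5 (-0.20), Ube2c (-0.69), Kif11 (-0.65), Stmn1 (-0.42), Cks1b (-0.29), Cks2 (-0.19), Ncapg (-0.068), Ube2s (-0.086). Without all 4 libraries: Mki67 (-0.68), Top2a (-0.61), Cdk1 (-0.74), Ccnb1 (-0.33), Ccnb2 (-0.91), Plk1 (-0.66), Aurkb (-0.79), Bub1 (-0.30), Birc5 (-0.31), Ube2c (-0.84), Kif11 (-0.64), Stmn1 (-0.65), Cks1b (-0.83), Cks2 (-0.028), Ncapg (-0.34), Ube2s (-0.036), Cdkn1a (-0.17). With 1 library left out, ranges that crossed 0 were Ccna2 (-0.37 to 0.29), Aurka (-0.33 to 0.21), Cdc20 (-0.25 to 0.21), Hmmr (-0.22 to 0.19), Cdk1 (-0.25 to 0.37), Ccnb2 (-0.19 to 0.42), Kif11 (-0.21 to 0.40), Top2a (-0.16 to 0.55), Aurkb (-0.0066 to 0.73), Cdc25b (-0.35 to 0.12), Plk1 (-0.0044 to 0.68), Ube2c (-0.18 to 0.62). The cause of each was not tested. With 4 libraries a group, intervals reached past a 2-fold difference for 33 of 40 members.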
